A study of Bos taurus with 6 samples.

Results

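The Polycomb group genes examined here were 10 of the 19163 genes in the count table, taken by name. They were EZH1, EZH2, EED, SUZ12 and JARID2 of Polycomb repressive complex 2 (PRC2), and RING1, RNF2, BMI1, CBX2 and CBX7 of Polycomb repressive complex 1 (PRC1). The cells were F7, 1 line of bovine embryonic stem cells (bESCs) derived from an in vitro fertilized Holstein Friesian embryo. MC-F7, labelled 1M-F7 in the deposited data, grew on mouse embryonic fibroblasts (MEFs) stopped from dividing with mitomycin C, and MT-F7 grew on MEFs killed by fixation in methanol. Each group had 3 RNA-seq libraries, both groups are given as 15 passages, and both grew in the same medium with FGF and the WNT inhibitor IWR1. The medium was refreshed every day for MC-F7 and every other day for MT-F7, so the feeder layer and the feeding schedule cannot be told apart. The cells left floating after a short stay on gelatin were taken for RNA. The sources do not say if the 3 libraries per group were grown separately, so the p values measure the spread between these libraries, which may be technical.

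Polycomb proteins keep developmental genes silent through marks on histones. PRC2 places methyl groups on lysine 27 of histone H3, with EZH2 or its paralog EZH1 as the enzyme, EED and SUZ12 as the partners that the enzyme needs, and JARID2 as an accessory subunit that helps to bring the complex to its targets. PRC1 places ubiquitin on histone H2A through RNF2 (RING1B) or RING1, each paired with a PCGF protein such as BMI1. In canonical PRC1 a CBX protein reads the PRC2 mark and a PHC protein holds complexes together, whereas variant PRC1 carries RYBP or YAF2 in place of the CBX protein. In embryonic stem cells these complexes sit on genes of later lineages, and the subunits used change as pluripotent cells differentiate.

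The libraries held 21958386 to 24933430 counts, and genes of the mitochondrial genome took 16.3% to 28.3% of them, with the highest share of each group in replicate 3. At these depths 3 counts, taken as the smallest detected amount, equal 0.116 to 0.14 CPM (counts per 1e6 counts of the TMM-scaled library), which covers counting error only. For the marker counts, higher and lower mean passing the edgeR test given below at an adjusted p under 0.05. By this rule 11.9% of all tested genes were higher in MT-F7 and 11.3% lower. Of the pluripotency markers 4 of 5 tested were lower in MT-F7, with POU5F1 at 825 to 1456 CPM in MC-F7 and 486 to 557 CPM in MT-F7. Of the neural ectoderm markers 4 of 5 tested were higher, and the summed level of the list was 409 to 476 CPM in MC-F7 and 1059 to 1175 CPM in MT-F7. NES, which did not pass (edgeR adjusted p = 0.083), held 289 to 339 CPM of this sum in MC-F7 and 362 to 464 CPM in MT-F7. Of the fibroblast markers 4 of 10 were higher and none was lower, with a summed level of 228 to 308 CPM against 356 to 410 CPM. COL1A1, which did not pass (edgeR adjusted p = 0.094), held 170 to 231 CPM of this sum in MC-F7 and 256 to 286 CPM in MT-F7. The endoderm and trophectoderm lists had 1 and 2 tested genes, all lower. A gene low in one group could have enough counts for the test only through the other group. This held for FOXA2 and GATA2 of these lists and for DPPA4 of the pluripotency markers, all through MC-F7. The marker counts thus describe the tested genes alone. The summed levels of the endoderm and trophectoderm lists were 4.78 to 6.14 CPM and 51.3 to 77.2 CPM in MC-F7. In MT-F7 they were 0.618 to 1.19 CPM and 6.50 to 7.37 CPM. Each of these sums was mostly 1 gene. FOXA2 of the endoderm list had 4.65 to 5.06 CPM in MC-F7 and 0.348 to 0.764 CPM in MT-F7. KRT7 of the trophectoderm list had 49.8 to 75.6 CPM in MC-F7 and 5.83 to 7.05 CPM in MT-F7. CDX2, GATA4 and AFP were at 0 counts in every library. A lower share of cells of 1 kind and less RNA per cell cannot be told apart in such bulk RNA. The part of these markers in the results that follow was not tested, nor was the part of mouse feeder RNA. Only MC-F7 grew on living feeder cells. The paper reports a lower rate of alignment to the cattle genome in MC-F7 than in MT-F7, and proposes that fixed feeders left less feeder contamination.

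All 10 Polycomb genes had enough counts to be tested, and EZH2 rose in MT-F7 while most of its partners did not pass the test. The groups were compared across 13001 genes with the quasi-likelihood test of edgeR and Benjamini-Hochberg adjustment, and a gene passed at an adjusted p under 0.05. Log2 fold changes are above 0 where MT-F7 had the higher level. Of the 10 genes 2 passed, EZH2 higher and JARID2 lower, where 23.2% of all tested genes passed (11.9% higher and 11.3% lower). Their median log2 fold change was -0.10, against -0.0026 over all tested genes. In 3 of the 10 the CPM values of the groups did not overlap, where this held for 40.0% of all tested genes. EZH2 was the 1 of these with higher values in MT-F7 (19.9% of all tested genes), and SUZ12 and JARID2 had lower values (20.1%). The same 3 genes had an unadjusted p under 0.05, as had 35.8% of all tested genes. Only EZH2 also had a log2 fold change above 1 in size with it, as had 13.0% of all tested genes, and 6.99% did so upward.

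**Figure D1:**
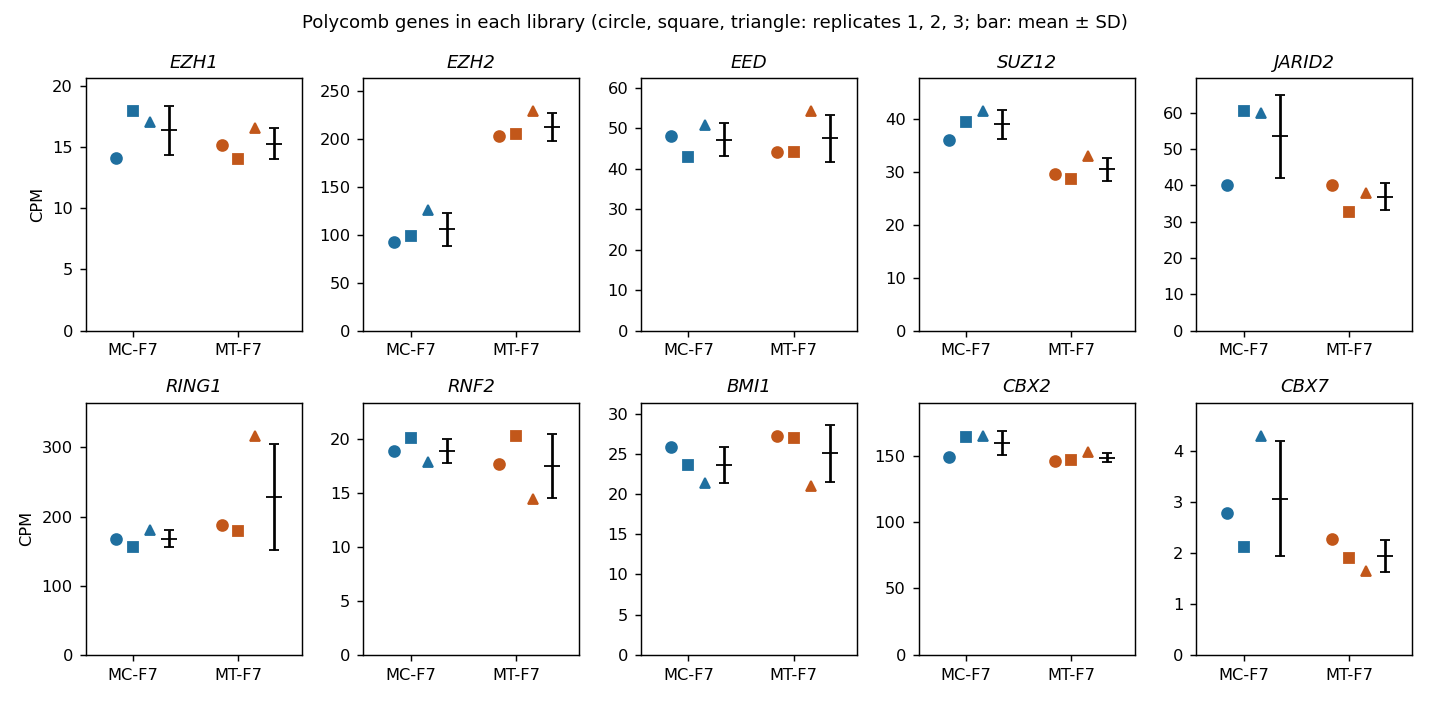
Each panel shows 1 Polycomb gene, with its CPM in the 3 MC-F7 and 3 MT-F7 libraries (symbols for replicates 1 to 3) and the mean ± SD of the group beside them. EZH2 lies at 92.7 to 126 CPM in MC-F7 and at 203 to 229 CPM in MT-F7, while the groups overlap for EED and RING1 has 1 MT-F7 library, replicate 3, far above the rest.

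EZH2 (Entrez gene 509106), the main H3K27 methyltransferase of embryonic cells, had 92.7, 99.1 and 126 CPM in MC-F7 replicates 1 to 3 and 203, 206 and 229 CPM in MT-F7. The lowest MT-F7 library was well above the highest MC-F7 library, and replicate 3 was the highest of both groups. The group means of 105.8 ± 17.4 and 212.7 ± 14.4 CPM (SD of 3 libraries) gave a log2 fold change of 1.01 (standard error, SE, 0.160, adjusted p = 0.00065). This is 2.01-fold, with a 95% interval from 1.58 to 2.56. EZH2 passed whichever of the 6 libraries was left out, with log2 fold changes from 0.92 to 1.14, and no other RefSeq gene model overlaps it in the ARS-UCD2.0 annotation. A log2 fold change of at least 1 in size was seen in 13.6% of all tested genes.

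EZH1 (533087), the paralog of EZH2 that is best known from cells that have stopped dividing, was low in both groups. It had 14.2, 18.0 and 17.1 CPM in MC-F7 and 15.2, 14.1 and 16.6 CPM in MT-F7. The groups overlapped, and the log2 fold change was -0.10 (95% interval -0.47 to 0.27, adjusted p = 0.71). An EZH1 change as large as that of EZH2 lay outside this interval.

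EED (404183), which binds methylated H3K27 and stimulates the enzyme, was at 48.0, 42.8 and 50.9 CPM in MC-F7 and at 44.2, 44.3 and 54.2 CPM in MT-F7. The values of both groups covered nearly the same range, with a log2 fold change of 0.0097 (95% interval -0.32 to 0.34, adjusted p = 0.97). SUZ12 (538774), the scaffold of PRC2, had 36.1, 39.4 and 41.4 CPM in MC-F7 and 29.6, 28.7 and 32.9 CPM in MT-F7. Every MT-F7 library lay below every MC-F7 library, yet with a log2 fold change of -0.36 (SE 0.149) the adjusted p was 0.10.

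JARID2 (528253) had 40.2, 60.4 and 59.8 CPM in MC-F7 and 40.2, 32.7 and 37.8 CPM in MT-F7. Replicate 1 had 40.21 CPM in MC-F7 and 40.20 CPM in MT-F7, so the groups were separated only by the gap between these values. The log2 fold change was -0.53 (SE 0.181), with an adjusted p of 0.0499 that sat at the threshold. Of the fits that left out 1 library, JARID2 kept its call only in that without MC-F7 replicate 1. Without each of the other 5 libraries the adjusted p was 0.059 to 0.21. EZH2 passed under each of the same 6 settings.

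Within a library the ratio of 2 genes does not depend on the library size, and the deposited TPM values, which were counts times a factor fixed for each gene and taken here to be per length, allow levels of different genes to be compared. The EZH2 to EZH1 ratio of these per-length values was 10.9, 9.21 and 12.3 in the MC-F7 libraries and 22.2, 24.4 and 23.0 in those of MT-F7. The ratio was higher in all 3 MT-F7 libraries, by 1.11 on the log2 scale or 2.16-fold. An exact permutation test of 3 against 3 gave a two-sided p of 0.1, the smallest it can give, and 0.3 after adjustment over the 3 ratios of paralogs tested. EZH1 made up 8.57% ± 1.14 of the summed EZH1 and EZH2 level in MC-F7 against 4.13% ± 0.186 in MT-F7 (SD of 3 libraries).

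The balance of EZH2 to its partners is given as a description, since these pairs were picked after their values were seen. The EZH2 to EED ratio was 1.02, 1.22 and 1.30 in the MC-F7 libraries and 2.42, 2.46 and 2.23 in those of MT-F7. The EZH2 to SUZ12 ratio was 4.01, 3.92 and 4.73 in the MC-F7 libraries and 10.7, 11.2 and 10.9 in those of MT-F7. In both pairs every MT-F7 library was above every MC-F7 library. These are ratios of mRNA, and protein amounts and histone methylation were not analysed here.

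**Figure D2:**
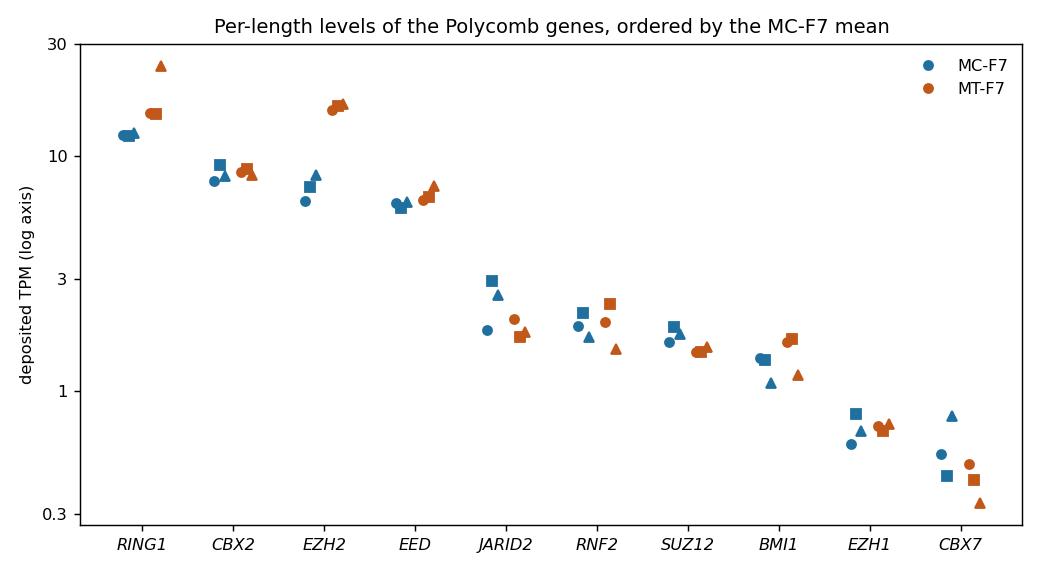
Deposited TPM (log axis) of the 10 Polycomb genes in each library, ordered from the highest to the lowest MC-F7 mean, with circles, squares and triangles for replicates 1, 2 and 3. EZH2 lies at 6.48 to 8.30 in MC-F7 and overlaps CBX2, whereas in MT-F7 it lies at 15.7 to 16.7, far above CBX2.

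By per-length level the 10 genes fell into a high and a low set. RING1 was the highest in both groups, with 12.4 ± 0.197 TPM in MC-F7 and 18.3 ± 5.24 TPM in MT-F7. CBX2 (8.43 ± 0.720), EZH2 (7.39 ± 0.910) and EED (6.26 ± 0.183) followed in MC-F7, where the ranges of CBX2 and EZH2 overlapped while those of EZH2 and EED did not. In MT-F7 EZH2 was at 16.3 ± 0.496 TPM, within the range of RING1, and above CBX2 at 8.59 ± 0.240 and EED at 6.89 ± 0.514 TPM. JARID2, RNF2, SUZ12 and BMI1 had means of 1.27 to 2.45 TPM in MC-F7 and 1.49 to 1.94 TPM in MT-F7. In MC-F7 the ranges of JARID2, RNF2 and SUZ12 overlapped and BMI1 lay below them, while in MT-F7 RNF2 overlapped JARID2, SUZ12 and BMI1, and SUZ12 lay below JARID2. EZH1 and CBX7 were the lowest in both groups, at 0.691 ± 0.105 and 0.587 ± 0.180 TPM in MC-F7, where they overlapped, and at 0.702 ± 0.0255 and 0.413 ± 0.0771 TPM in MT-F7, where they did not.

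None of the 5 PRC1 genes passed the edgeR test (23.2% of all tested genes did), and DESeq2 called 0 of them (3234 of the 13001 tested genes). None had an unadjusted p under 0.05 (35.8% of all tested genes did). RING1 (100125778), 1 of the 2 ubiquitin ligases, had 167, 156 and 181 CPM in MC-F7 and 188, 179 and 317 CPM in MT-F7. MT-F7 replicate 3 stood apart, and the other MT-F7 libraries lay close to MC-F7. The log2 fold change was 0.44 (SE 0.207, adjusted p = 0.15), and 0.12 (adjusted p = 0.58) without MT-F7 replicate 3. RNF2 (540090), the ligase that carries most of the H2A ubiquitination in mouse embryonic stem cells, had 18.8, 20.02 and 17.8 CPM in MC-F7 and 17.7, 20.3 and 14.4 CPM in MT-F7. Its groups overlapped, with a log2 fold change of -0.11 (95% interval -0.49 to 0.26). The RNF2 to RING1 ratio was 0.155, 0.176 and 0.135 in the MC-F7 libraries and 0.129, 0.155 and 0.0621 in those of MT-F7 (exact permutation p = 0.3, 0.3 after adjustment). The log2 difference of -0.52 in this ratio became -0.13 without MT-F7 replicate 3.

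BMI1 (510666), a PCGF protein of canonical PRC1 that is known for self-renewal of adult stem cells, had 25.8, 23.6 and 21.3 CPM in MC-F7 and 27.2, 26.96 and 21.0 CPM in MT-F7. Replicate 3 was the lowest of both groups, and the log2 fold change was 0.089 (95% interval -0.27 to 0.45). CBX2 (506628), a chromodomain protein that compacts chromatin, was among the most abundant of the 10, with 149, 164 and 165 CPM in MC-F7 and 146, 147 and 153 CPM in MT-F7. The groups overlapped, with a log2 fold change of -0.10 (95% interval -0.40 to 0.20). CBX7 (525770), the main CBX protein of mouse embryonic stem cells, had only 63, 51 and 92 counts in MC-F7 against 57, 49 and 39 counts in MT-F7. These are 2.79, 2.11 and 4.30 CPM against 2.27, 1.89 and 1.66 CPM, with overlap, a log2 fold change of -0.66 (95% interval -1.36 to 0.049) and an adjusted p of 0.17. At this depth a fall of CBX7 by more than 2-fold lay within the interval. Without MC-F7 replicate 3, the highest library, the log2 fold change was -0.34 (adjusted p = 0.52), and over the 6 fits that left out a library it ran from -0.87 to -0.34. The CBX2 to CBX7 ratio was 14.6, 21.2 and 10.5 in the MC-F7 libraries and 17.5, 21.1 and 25.1 in those of MT-F7, also overlapping (exact permutation p = 0.3, 0.3 after adjustment).

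The subunits that join these 10 proteins were then examined in 5 lists with 42 genes in all, all of which had enough counts to be tested. Of the 42 genes 14 passed, 8 higher and 6 lower in MT-F7 (33.3%, against 23.2% of all tested genes), with a median log2 fold change of 0.037. The direction was mixed within most lists. Among related genes, PHC1 and PHC2, RYBP and YAF2, and ASXL2 and ASXL3 moved in opposite directions. RBBP4 and RBBP7 (log2 fold changes of 0.12 and 0.021) did not, nor did FOXK1 and FOXK2 (-0.32 and -0.12). These pairs were picked after their values were seen. The PHC3 and AUTS2 gene models overlap pseudogenes in the RefSeq annotation, and reads shared with them cannot be told apart. Of the 14 genes 9 passed in every fit tried (PHC1, PHC2, PHC3, CBX8, YAF2, AUTS2, ASXL2, ASXL3 and MBD5).

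**Figure D3:**
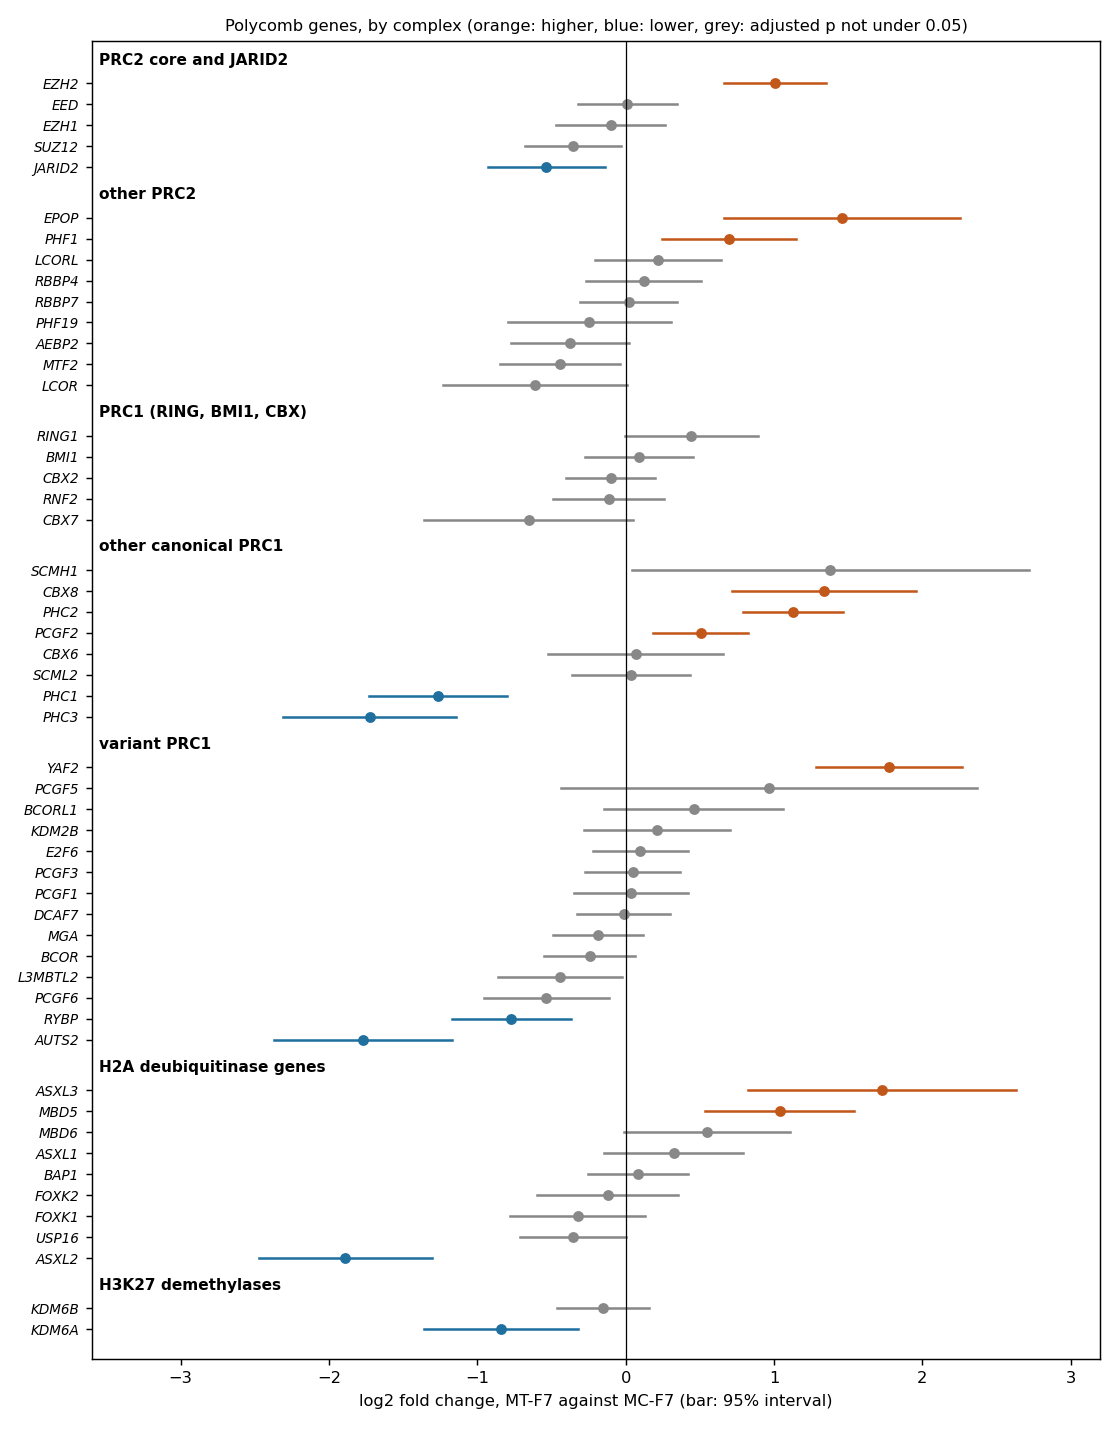
Log2 fold change (MT-F7 against MC-F7, horizontal axis) with its 95% interval for the 10 Polycomb genes and 42 further genes, grouped by complex, with orange for higher, blue for lower and grey for genes that did not pass. EZH2 is the 1 orange gene among the core subunits, and PHC2 against PHC1 and PHC3, YAF2 against RYBP and ASXL3 against ASXL2 lie on opposite sides of 0.

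Of the 9 other PRC2 genes 2 passed (22.2%, against 23.2% of all tested genes), both higher. The median log2 fold change of the 9 was 0.021. Only 1 of the 9 passed without MC-F7 replicate 2, MT-F7 replicate 2 or MT-F7 replicate 3, and without MC-F7 replicate 1 PHF1 was lost and LCOR passed as lower. In that order, these fits called 1914 of 13177, 2235 of 13242, 3087 of 13242 and 2674 of 13221 tested genes. EPOP (100296460), a PRC2 partner that binds elongin, rose from 17, 20 and 16 counts in MC-F7 to 48, 73 and 40 counts in MT-F7. Its level was 0.777 ± 0.0457 CPM in MC-F7 and 2.14 ± 0.595 CPM in MT-F7, and the log2 fold change was 1.46 (SE 0.368, adjusted p = 0.012). It missed the threshold without MT-F7 replicate 2 (adjusted p = 0.074). PHF1 (508957), a Polycomb-like protein that ties PRC2 to DNA, had 25.3, 24.3 and 30.02 CPM in MC-F7 and 36.9, 33.6 and 58.6 CPM in MT-F7, with MT-F7 replicate 3 the highest, as for RING1. Its log2 fold change was 0.70 (SE 0.209, adjusted p = 0.029), and 0.40 (adjusted p = 0.091) without MT-F7 replicate 3. It also missed the threshold without MC-F7 replicate 1 (adjusted p = 0.074) or 2 (adjusted p = 0.12). The other Polycomb-like proteins had log2 fold changes of -0.44 for MTF2 (adjusted p = 0.11) and -0.25 for PHF19 (adjusted p = 0.53). AEBP2, a zinc finger subunit, had -0.37 on the same scale (adjusted p = 0.17). The histone chaperones RBBP4 and RBBP7 had log2 fold changes of 0.12 and 0.021 and did not pass.

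In canonical PRC1, 5 of 8 other genes passed (62.5%, against 23.2% of all tested genes). Of these 3 were higher and 2 lower, among them all 3 PHC genes. PHC1 (540021), which carries a SAM domain that links PRC1 complexes into chains, had 136, 178 and 236 CPM in MC-F7 and 75.9, 60.5 and 92.5 CPM in MT-F7. The groups did not overlap, and PHC1 fell by 1.26 on the log2 scale (SE 0.214, adjusted p = 0.0010). PHC2 (537511), its paralog, had 70.5, 58.2 and 59.3 CPM in MC-F7 and 123, 133 and 155 CPM in MT-F7. It rose by 1.13 on the log2 scale (SE 0.156, adjusted p = 0.00023), again without overlap. PHC3 (534916) fell from 7.98 ± 2.05 to 2.41 ± 0.491 CPM, which was -1.73 on the log2 scale (SE 0.269, adjusted p = 0.00057).

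By per-length level PHC1 made up 64.0%, 71.9% and 77.0% of the summed PHC level in MC-F7 against 38.3%, 31.3% and 37.4% in MT-F7. PHC2 made up 24.7% ± 6.89 in MC-F7 against 62.8% ± 3.70 in MT-F7 (SD of 3 libraries). PHC1 was thus the most abundant PHC mRNA in all 3 MC-F7 libraries and PHC2 in all 3 MT-F7 libraries. The PHC2 to PHC1 ratio went from 0.340 to 1.77 (geometric means), a pair picked after its values were seen.

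CBX8 (506458), known to replace CBX7 in part as embryonic stem cells differentiate, rose from 2.43, 1.33 and 2.52 CPM to 5.02, 5.91 and 4.92 CPM. The log2 fold change was 1.34 (SE 0.287, adjusted p = 0.0048). Of the summed per-length level of CBX2, CBX6, CBX7 and CBX8, CBX2 made up 89.3% ± 0.703 in MT-F7 against 90.3% ± 2.25 in MC-F7, and CBX8 4.46% ± 0.496 against 1.67% ± 0.544. PCGF2 (MEL18, 505147), the paralog of BMI1, had 144, 130 and 148 CPM in MC-F7 and 176, 208 and 214 CPM in MT-F7, a log2 fold change of 0.50 (SE 0.148, adjusted p = 0.026). PCGF2 missed the threshold without MC-F7 replicate 2 (adjusted p = 0.15) or MT-F7 replicate 2 (adjusted p = 0.094), and its gene model overlaps that of PSMB3, whose reads may be shared where strand is not used. By per-length level PCGF2 was 87.5% ± 1.35 of the PCGF2 and BMI1 sum in MC-F7 and 90.2% ± 1.98 in MT-F7. CBX6, SCMH1 and SCML2 did not pass, with log2 fold changes of 0.067, 1.38 and 0.035. SCMH1 was at 0.0885 to 0.748 CPM in MC-F7 and 0.797 to 0.966 CPM in MT-F7, and it passed without MC-F7 replicate 3.

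**Figure D4:**
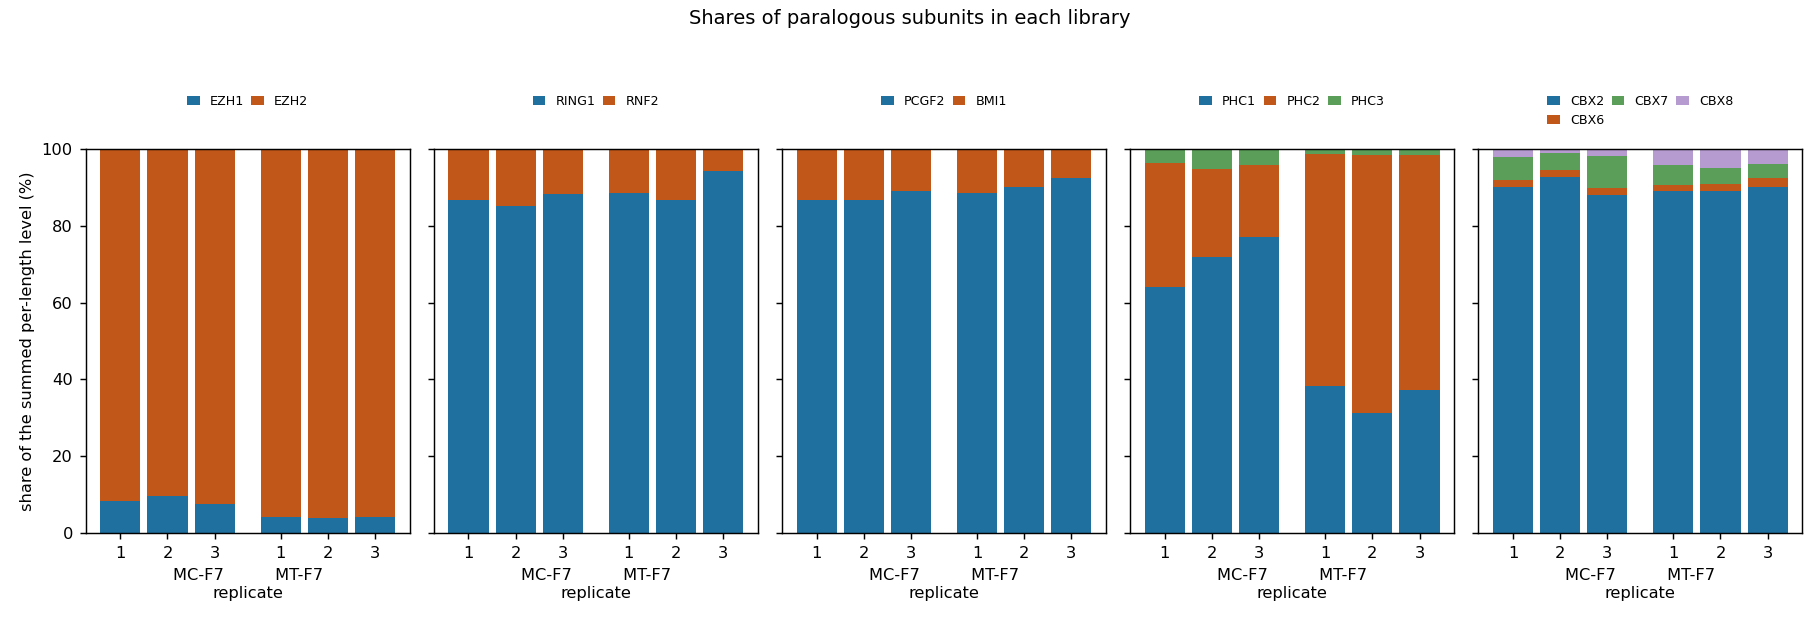
Stacked bars give the share (%) of each paralog in the summed per-length level of its set, for the 6 libraries, from left to right for EZH1 and EZH2, RING1 and RNF2, PCGF2 and BMI1, the PHC proteins and 4 CBX proteins (CBX2, CBX6, CBX7 and CBX8). The PHC panel turns from mostly PHC1 in MC-F7 to mostly PHC2 in MT-F7, while CBX2, RING1 and PCGF2 make up at least 88.1%, 85.1% and 86.6% of their sets in every library.

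Of 14 variant PRC1 genes 3 passed (21.4%, against 23.2% of all tested genes), 1 higher and 2 lower. Their median log2 fold change was 0.012. RYBP (616217) and YAF2 (536696), which take the same place in the complex, moved apart. RYBP had 9.997, 10.7 and 10.1 CPM in MC-F7 and 5.46, 6.45 and 6.11 CPM in MT-F7, a log2 fold change of -0.77 (SE 0.185, adjusted p = 0.0092). RYBP missed the threshold without MC-F7 replicate 2 (adjusted p = 0.051) or MT-F7 replicate 1 (adjusted p = 0.051). YAF2 had 3.14, 2.82 and 2.85 CPM in MC-F7 and 9.20, 12.5 and 8.45 CPM in MT-F7, a log2 fold change of 1.77 (SE 0.227, adjusted p = 0.00013). The YAF2 to RYBP ratio of per-length values was 0.474, 0.400 and 0.426 in the MC-F7 libraries and 2.55, 2.93 and 2.09 in those of MT-F7, so RYBP was the higher of the pair in MC-F7 and YAF2 in MT-F7. This ratio is a description, since the pair was picked after its values were seen. AUTS2 (615936), which joins a variant complex with PCGF3 or PCGF5 that is known to activate genes in neurons, fell from 82.5, 105 and 187 CPM to 30.1, 32.1 and 47.4 CPM. Its log2 fold change was -1.77 (SE 0.276, adjusted p = 0.00057), and replicate 3 was the highest of both groups. Without MC-F7 replicate 2 or MT-F7 replicate 1, AUTS2 was the 1 lower gene left. These fits called 895 of 13177 and 995 of 13247 tested genes as lower.

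None of the other 11 variant genes passed. The PCGF proteins that define the complexes had log2 fold changes of 0.038 (PCGF1), 0.047 (PCGF3), 0.96 (PCGF5) and -0.53 (PCGF6). PCGF6 had an adjusted p of 0.065, and passed without MC-F7 replicate 3 or MT-F7 replicate 2. PCGF5 was at 0.133 to 0.456 CPM in MC-F7 and 0.309 to 0.722 CPM in MT-F7, where only large changes could be detected. KDM2B, which brings a variant complex to CpG islands, had 29.9, 43.3 and 58.1 CPM in MC-F7 and 42.2, 47.2 and 62.7 CPM in MT-F7, with replicate 3 the highest of both groups and a log2 fold change of 0.21 (adjusted p = 0.54).

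Enzymes that take off the Polycomb marks and their cofactors were examined next. Of the 9 genes of the H2A deubiquitinase list 3 passed (33.3%, against 23.2% of all tested genes), 2 higher and 1 lower. Without MC-F7 replicate 3, 5 passed, with ASXL1 and MBD6 added, where 3093 of 13197 tested genes passed. BAP1, the deubiquitinase itself, had a log2 fold change of 0.081 (adjusted p = 0.75), and ASXL1, a cofactor, of 0.32 (adjusted p = 0.31). Its paralog ASXL2 (100140419) fell from 16.1 ± 5.15 to 4.35 ± 1.0 CPM, a log2 fold change of -1.89 (SE 0.269, adjusted p = 0.00028). ASXL3 (538107), best known from the brain, rose from 11, 19 and 25 counts to 43, 69 and 88 counts, with a log2 fold change of 1.73 (SE 0.417, adjusted p = 0.0095). MBD5 (541084), an accessory subunit, rose from 2.90 ± 0.418 to 5.96 ± 0.343 CPM, a log2 fold change of 1.04 (SE 0.231, adjusted p = 0.0060), and its gene model overlaps that of another protein-coding gene. MBD6 had a log2 fold change of 0.55 (adjusted p = 0.15).

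Of the 2 H3K27 demethylases KDM6A (UTX, 280952) was lower, with 32.6, 48.6 and 68.2 CPM in MC-F7 and 26.2, 23.4 and 33.8 CPM in MT-F7. The groups overlapped, since MT-F7 replicate 3 was above MC-F7 replicate 1. The log2 fold change was -0.84 (SE 0.240, adjusted p = 0.023). KDM6A missed the threshold without MC-F7 replicate 2 or 3 (adjusted p = 0.061 and 0.070) and without MT-F7 replicate 1 or 2 (adjusted p = 0.078 and 0.086). KDM6B had a log2 fold change of -0.15 (adjusted p = 0.48).

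EZH2 is known to follow the cell cycle, and 15 cell cycle genes, MKI67, PCNA, TOP2A and MCM2 among them, are given beside it. edgeR called 0 of the 15 (23.2% of all tested genes) and DESeq2 1 (3234 of the 13001 tested genes). In edgeR 3 had an unadjusted p under 0.05 (35.8% of all tested genes), all lower in MT-F7. Without MC-F7 replicate 3, 3 passed as lower, as did 1501 of 13197 tested genes. The log2 fold changes of the 15 lay between -0.42 and 0.17 (median -0.0051), and their summed level was 3815 to 4497 CPM in MC-F7 and 3641 to 4255 CPM in MT-F7. The part of cell division in the EZH2 result was not tested.

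Developmental regulators that Polycomb complexes are known to bind in embryonic stem cells were examined as a list of 25 genes, of which 24 were in the count table and 12 had enough counts to be tested. Of these 12, 7 were higher and 1 lower (11.9% and 11.3% of all tested genes), with a median log2 fold change of 2.55. A gene low in one group could pass the count filter only through the other, so these numbers describe the tested genes alone and support nothing about the list. The other 12 were at 0.622 CPM or less in every library, and GATA4 and HAND1 had 0 counts throughout. The list holds PAX6 and LHX2, which are also neural ectoderm markers, and PAX2, PAX3 and DLX5, which act in neural, eye or neural crest development. It shares GATA4, GATA6, SOX17 and FOXA2 with the endoderm markers, and FOXA2 was the 1 tested gene of those markers.

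The 5 with the largest changes were DLX5, TBX3, PAX3, FOXA2 and LHX2. DLX5 (507415), a homeobox factor of the anterior neural border, rose from 3.45, 2.74 and 2.71 CPM to 43.8, 61.1 and 38.5 CPM, a log2 fold change of 4.01 (SE 0.225, adjusted p = 5.9e-07). LHX2 (783763), a factor of the eye field and forebrain, rose from 38.1, 31.9 and 33.9 CPM to 265, 363 and 345 CPM, a log2 fold change of 3.23 (SE 0.177, adjusted p = 5.7e-07). PAX3 (540951) had 7, 9 and 0 counts in MC-F7 against 47, 94 and 74 counts in MT-F7. TBX3 (781063), a T-box factor, had 3, 6 and 0 counts in MC-F7 against 35, 53 and 37 counts in MT-F7. FOXA2 (101906272), a factor of endoderm and the floor plate, fell from 105, 122 and 102 counts to 10, 9 and 18 counts, a log2 fold change of -3.26 (SE 0.347, adjusted p = 3.1e-05). FOXA2 was the 1 lower gene, and it was not tested with 10 counts required in every library. Binding and histone marks were not analysed here.

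**Figure D5:**
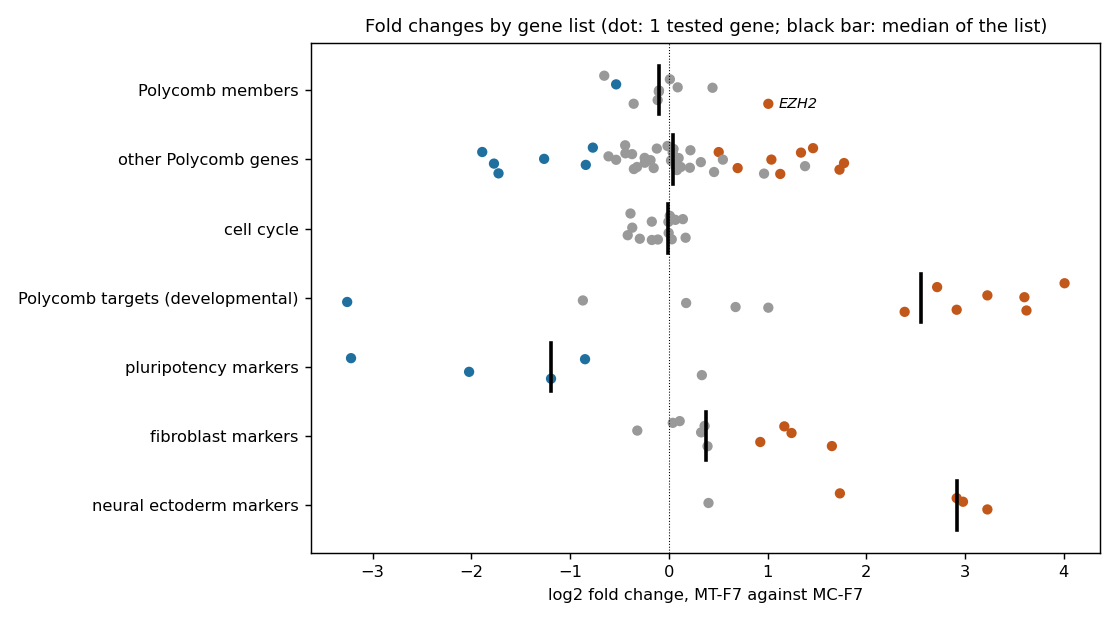
Each dot is 1 tested gene at its log2 fold change (MT-F7 against MC-F7), grouped by list and spread vertically for sight, with orange for higher, blue for lower, grey for genes that did not pass, and a black bar at the median. The cell cycle genes lie between -0.42 and 0.17, EZH2 at 1.01, and the tested developmental target genes reach from -3.26 to 4.01.

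Over the 6 libraries the tested genes with the profiles most like that of EZH2 were PCED1A and SHC3, with root mean square distances of 0.063 and 0.0686 between the log2 CPM profiles, each centred on its own mean. For JARID2 they were SLMAP and SH3RF3, at 0.0565 and 0.0584, neither of which passed the test (adjusted p = 0.077 and 0.18).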

How the data were processed

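RNA-seq data of 3 MC-F7 and 3 MT-F7 libraries were used. The authors used HISAT2 2.0.5 to align reads to a cattle genome from Ensembl and deposited raw counts per gene from featureCounts 1.5.0-p3, and the genome build, the strand setting and the treatment of reads that fit several paralogs are not given in the sources used here. The authors also deposited values that they call TPM. The ratio of count to TPM did not vary between libraries by more than 0.1% in 9727 of 9728 genes compared (50 counts or more throughout), so library size is still in them, and they were used only to compare genes by per-length level and as an alternative. Columns of MC-F7 are headed 1M or M1.

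Entrez identifiers were matched to symbols with a RefSeq table (ARS-UCD2.0), and 89 of 19163 did not match. The count table was filtered with filterByExpr at its minimums of 10 counts and 15 in total, scaled by TMM and tested with edgeR 4.0.16 in R 4.3.3, without a block and two-sided. CPM are per TMM-scaled library. Ratios of paralogs were compared by exact permutation tests. Libraries within a group differed by far more than sampling noise (chi-square over degrees of freedom of at least 24.1). Alternatives tried were DESeq2 1.42.0, library size only, RLE factors, other filters, a replicate block, each library left out, limma 3.58.1 on log2(TPM + 1) and log2(TPM + 0.1), and removal of 13 mitochondrial genes. On simulated counts for 19163 genes with 200 changed by 1 on the log2 scale, the main test recovered 72.5%, with 4.61% of its calls false. The changed genes were drawn from those that passed the filter, and every gene had the same dispersion (0.0342), so these rates need not hold in the real data.

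The 10 genes and the lists were chosen with earlier results of these data known. Named were the 10 genes, every other Polycomb gene that passed, the 5 passing target genes with the largest change, and the 2 genes closest in profile to each of the 10 that passed. Genes named beyond this rule (those that did not pass, POU5F1, CDX2, GATA4, AFP, HAND1 and examples of a list) were picked after their values were seen. SOX2, LIN28B, TDGF1, SOX1 and PAX7 of the lists were not analysed here. A further gene of the lists is not reported here.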

Additional observations from a re-analysis of the deposited data

How the results depend on the processing

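EZH2 rose and passed under each of the 15 other fits, with adjusted p from 4.3e-08 to 0.0086. The total of Polycomb genes called, 2, was 1 with 10 counts in every library, with library size only, without mitochondrial genes, under both limma fits and under the unadjusted rule with a log2 fold change limit of 1, because JARID2 was lost (0 lower genes). JARID2 then had log2 fold changes of -0.53, -0.52, -0.54, -0.27 (TPM + 1) and -0.37 (TPM + 0.1). The edgeR adjusted p was 0.0538, 0.0578 and 0.0505 in the edgeR fits among these, and the limma adjusted p was 0.269 and 0.256. JARID2 passed with RLE factors, no count filter and the replicate block (edgeR adjusted p = 0.0491, 0.0471 and 0.0087). It also passed with DESeq2 (adjusted p = 0.034). The paper reports JARID2 as significantly reduced in MT-F7. Leaving out 1 library gave totals of 1 to 2, 0 to 1 lower genes, and log2 fold changes of -0.70 to -0.44 for JARID2 and -0.10 to 0.062 for EED. Over all tested genes these fits called from 1914 of 13177 (without MC-F7 replicate 2) to 3093 of 13197 (without MC-F7 replicate 3). The numbers were not taken to pair the libraries, since the deviations of same-numbered libraries had correlations across genes of 0.134, 0.0445 and 0.417, and MC-F7 replicates 1 and 2 correlated best with another number. Replicate 3 of each group correlated negatively with replicates 1 and 2 of the other group (-0.32 to -0.14). The deviations of replicate 3 were thus partly shared by the groups, and the cause of this was not tested. Under the replicate block 4 of the 10 passed (2 higher, 2 lower, with SUZ12 at -0.36 and RING1 at 0.39, edgeR adjusted p = 0.035 and 0.032), and 4674 of 13001 genes were called, against 3016. With each number once per group, the block cannot change the mean difference of a ratio of paralogs (1.11 for EZH2 to EZH1). The signs of EZH1, RNF2 and CBX2, all near 0, turned under limma (0.012, 0.0063 and 0.026 with TPM + 1, 0.029, 0.0044 and 0.030 with TPM + 0.1). The limma fits used the deposited values, which were not scaled for library size. The libraries held 21958386 to 23414319 counts in MC-F7 and 24271208 to 24933430 in MT-F7.

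Among the other lists, the block gave 4 other PRC2 genes (2 lower), 5 deubiquitinase genes (4 higher) and 3 cell cycle genes, all lower. DESeq2 gave 1 lower cell cycle gene. With limma, TPM + 1 left 1 higher PRC2 gene, TPM + 0.1 left 1 lower variant PRC1 gene, and both left 0 demethylases. With 10 counts in every library 5 target genes passed, 0 of them lower. Over all genes this fit called 2712 of 11970 and DESeq2 3320 of 16223. On the same count, limma called 2398 (TPM + 1) and 2448 (TPM + 0.1) of 16941. Leaving out 1 library gave 1 to 2 other PRC2 genes (1 to 2 higher, 0 to 1 lower), 1 to 3 lower variant PRC1 genes, 3 to 5 deubiquitinase genes (2 to 4 higher), 0 to 1 demethylases and 0 to 3 lower cell cycle genes. The calls over all tested genes also moved between these fits, from 1914 of 13177 to 3093 of 13197. The cause of these changes was not tested. Depth limits CBX7, EPOP, SCMH1, PCGF5 and ASXL3, which had the fewest counts.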
